A study of Mus musculus with 12 samples.

Results

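The resting transcriptome of mouse bone marrow-derived macrophages (BMDMs) was described from the 3 untreated control samples of a series of 12 RNA-seq samples, taken by their treatment label alone and not by any measured value. The cells came from wild-type mice aged 8 to 12 weeks, on a C57BL/6 background per the study's methods. They were differentiated for 6 days with L929 supernatant, a conditioned medium that serves as the source of M-CSF, the growth factor the labels name. The other 9 samples, 3 in each group, were BMDMs given IL-4 at 20 ng/ml for 24 h, LPS at 100 ng/ml for 3 h (the labels' unit; the study's methods give nM), or IL-4 and then LPS; they were not used here, so no contrast was made. By the study's description of this RNA-seq, the 3 replicates were separate mice, spread over 2 independent experiments, and which control belonged to which experiment is not given in the sources used here. The spread between replicates therefore holds differences between mice and between experiments, which cannot be told apart. Cultured cells of this kind are a model of a macrophage grown with a single growth factor, outside any tissue.

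Macrophages are phagocytes: they engulf microbes, dying cells and lipoproteins and break them down in lysosomes. M-CSF acts through its receptor Csf1r to keep myeloid precursors alive and to turn them into macrophages, and the transcription factor PU.1 (encoded by Spi1) sets up much of the gene program of the lineage. Resting cells carry the receptors for microbial products, whereas most inflammatory cytokines are made only after such a receptor is engaged.

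Values were FPKM (fragments per kilobase of transcript, relative to all mapped fragments of the sample), which are scaled to transcript length and so allow genes to be set beside each other within a sample. Per-sample FPKM totals were 460064 to 466955. The depth was not recorded in the tables, but many low values step in units of a single fragment. The steps gave relative depths of 1, 1.335 and 3.296 for replicates 1 to 3. In single-exon olfactory receptor rows with a span of 850 to 1100 bases, the lowest step was worth 0.105, 0.0790 and 0.0318 FPKM. A gene of about that length listed at 0 could therefore still have had up to 0.316, 0.237 and 0.0954 FPKM (3 fragments, counting error only). Replicate 1, the shallowest, stood apart from the other two in the comparison of replicates given further down.

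Fewer than 50% of the annotated rows were expressed. Of 23847 rows (1 row per gene and locus), 10628 (44.6%) reached 1 FPKM in at least 1 control, the level at which the study's methods call a gene expressed, and 10012 (42.0%) reached it in every control. A further 8563 rows (35.9%) were at 0 in all 3 samples, and 4656 lay between these states. The number of rows at 0 was 10108, 9822 and 9160 in replicates 1 to 3 and was smallest in the deepest sample. The number at 1 FPKM or more was 10293, 10313 and 10323 and hardly moved with depth. The median of the expressed rows was 10.5 FPKM (mean of 3 samples), 694 rows had a mean of at least 100 FPKM, and 46 had a mean of at least 1000.

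The signal was concentrated in few transcripts. The 10 highest rows held 17.9% ± 0.358 (SD, n = 3) of the FPKM total, the 100 highest held 39.6% ± 0.888, and the 1000 highest held 70.4% ± 0.470. It took 226, 248 and 251 rows in replicates 1 to 3 to reach 50% of the total, and 3685, 3692 and 3749 rows to reach 90%. Protein-coding rows carried 94.2% ± 1.67 of the total. Long noncoding RNA rows, 1711 in number, carried 0.314%, and 136 of them were at 1 FPKM or more in all samples. Rows of short RNA genes (microRNA, small nucleolar and small nuclear RNA) were 821 in number and carried 4.58% ± 1.65, with the highest share, 6.49%, in replicate 1. No row lay on the mitochondrial chromosome.

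**Figure D1:**
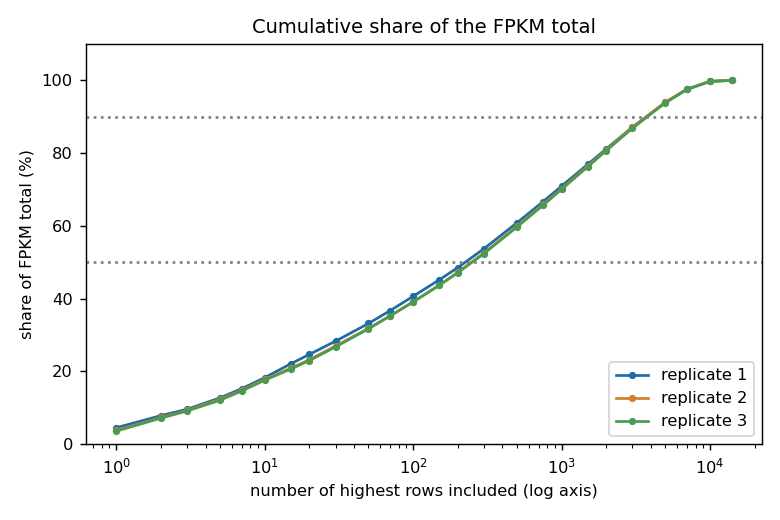
Share of each sample's FPKM total (percent, vertical axis) held by its highest rows (number of rows, logarithmic horizontal axis) in control replicates 1 to 3; dotted lines mark 50% and 90%. The curves nearly coincide: 226 to 251 rows reach 50% and 3685 to 3749 rows reach 90%.

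The most abundant transcripts were those of iron storage, antibacterial defence, lipid transport and lysosomal digestion. Fth1 (chr19:9980600-9985111, in mm10, the build of all coordinates here), the heavy chain of the iron storage protein ferritin, ranked first at 20722, 17667 and 16458 FPKM in replicates 1 to 3. Lyz2 (chr10:117277541-117282272), the lysozyme of myeloid cells, which cuts bacterial cell walls, ranked second at 15344, 16507 and 16495 FPKM. The order of these 2 genes was not fixed: Fth1 was above Lyz2 in replicates 1 and 2 and just below it in replicate 3. Ftl1 (chr7:45457944-45459886), the ferritin light chain, followed at 7201, 9113 and 9102 FPKM. Ftl1 is uncertain, since 73.4% of the 50-base words of its longest transcript also occur in 14 other genes. The 2 ferritin chains together made up 5.78% ± 0.270 of all FPKM, and Lyz2 with its neighbour Lyz1 made up 3.72% ± 0.129. Lyz1 was 36th, and Lyz2 was 14.3 ± 0.494 times higher than it. The level of Lyz1 and this ratio are uncertain, since 16.1% of the words of Lyz1 also occur in Lyz2. How fragments from the shared sequence were divided between the genes was not tested.

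Apoe, the apolipoprotein that carries cholesterol out of macrophages, ranked next at 8023, 7751 and 7072 FPKM, and Psap, the precursor of the saposins that help lysosomal enzymes degrade sphingolipids, came after it at 6418, 6660.3 and 6608 FPKM. Psap was the steadiest of these, with an SD of 128 around 6562. Tmsb4x, which binds actin monomers, stood at 5177, 5558 and 5629.6 FPKM. Cathepsin D (Ctsd) had 5043, 5332 and 5289 FPKM and the galectin Lgals3, a surface marker of macrophages, 4262, 4949.7 and 4757 FPKM. Further down came Ctsb, B2m, Ctss, Tyrobp, Itm2b, Gpnmb, Cd74, C1qb, Prdx1, Sepp1, Lpl, Vim, Cd68, Actb and Cst3, the last at 1648, 1851 and 1771 FPKM. By role the 25 rows include 3 cathepsins, the protease inhibitor cystatin C (Cst3) and the light chain of MHC class I (B2m). The class II invariant chain (Cd74), a signalling adaptor of myeloid receptors (Tyrobp) and a complement chain (C1qb) are among them too. So are an antioxidant enzyme (Prdx1), a selenium carrier (Sepp1) and lipoprotein lipase (Lpl). The 25 highest rows held 25.4% ± 0.579 of the total.

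**Figure D2:**
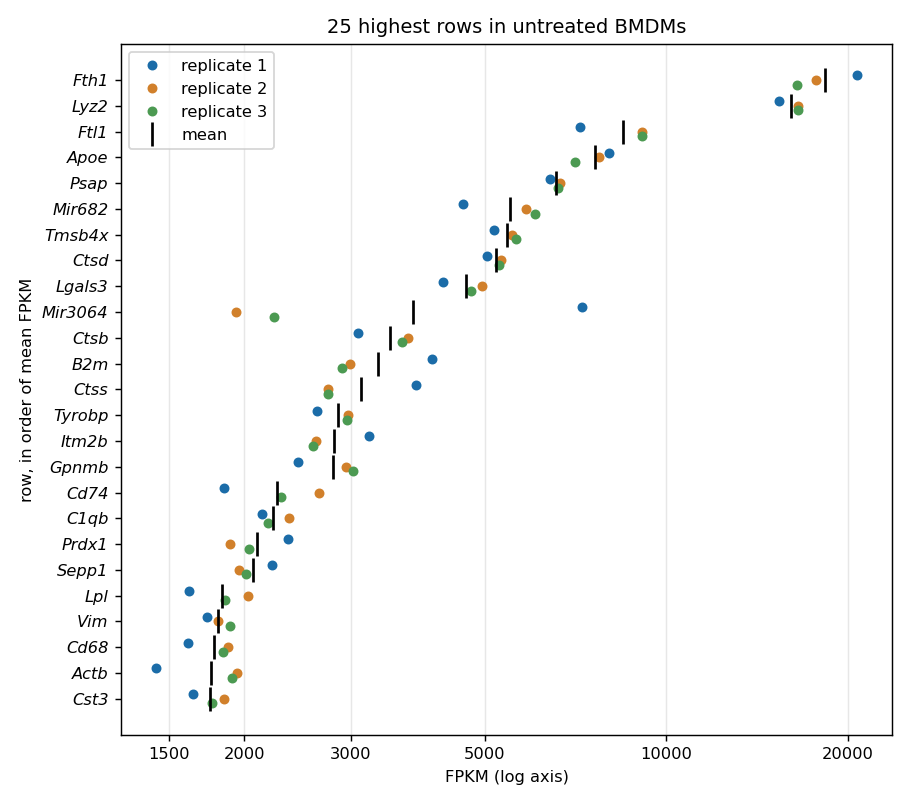
FPKM (logarithmic horizontal axis) of the 25 rows with the highest mean in untreated BMDMs; dots are control replicates 1 to 3 and the bar is their mean. Fth1 and Lyz2 lie between 15344 and 20722 FPKM in every sample, and Mir3064 has the widest spread, with replicate 1 at 7243 FPKM and the other replicates at 1937 and 2242.

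Of the 25 highest rows, 2 belong to microRNA genes, and their sequences are shown because the reads that fall on them can come from longer transcripts at the same place. Mir682 (rank 6, 4613, 5849.5 and 6069 FPKM) lies at chr13:75645046-75645141 on the plus strand, and Mir3064 (rank 10, 7243, 1937 and 2242 FPKM) at chr11:106782693-106782759 on the minus strand. The libraries were poly-A selected, so mature microRNAs were not their target. The Mir682 hairpin is given from RefSeq (GRCm38.p6), 5′ to 3′, with the mature microRNA in capitals.
Mir682 hairpin: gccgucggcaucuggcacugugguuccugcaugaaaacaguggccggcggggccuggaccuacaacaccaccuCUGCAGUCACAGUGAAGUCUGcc
The mature microRNAs follow with the seed, bases 2 to 8, in capitals.
mmu-miR-682: cUGCAGUCacagugaagucug
mmu-miR-3064-5p: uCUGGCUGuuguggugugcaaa
mmu-miR-3064-3p: uGCCACACugcaacaccuuaca
The 3 seeds differ from each other. All 47 of the 50-base words of the Mir682 hairpin also occur in the processed pseudogene Gm4149, whose exon contains the hairpin on the same strand. All 18 words of the Mir3064 hairpin occur in a transcript of Ddx5, an RNA helicase gene on the same strand. In the main coding transcript of Ddx5 only 1 of the 67 hairpin bases is exonic, and in a transcript of the nonsense-mediated decay class all 67 are. These 2 values are therefore uncertain as measures of a microRNA, and the source of the fragments was not tested.

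Macrophage markers were abundant in all 3 samples. The list was chosen with earlier results of these data known, so its levels are a description and no independent check of the label. The 15 genes of the macrophage identity list were at 1 FPKM or more in every sample, 13 of them had a mean of at least 100 FPKM, and their median was 1102 FPKM against 10.5 for all expressed rows. Together they held 11.2% ± 0.391 of the FPKM total, most of it in Fth1 (3.95%), which is also counted under iron handling, and Lyz2 (3.48%). Csf1r, the M-CSF receptor, had 932, 888 and 906 FPKM and ranked 53rd. Adgre1, listed under its older symbol Emr1 and coding for the F4/80 antigen, had 973, 1003 and 1033 FPKM. Cd68, a membrane glycoprotein of macrophage lysosomes, had 1615, 1881 and 1842 FPKM. Mpeg1, a pore-forming protein of phagocytes, had 1129, 1099.5 and 1078 FPKM. These 4 genes varied by at most 1.16-fold between samples. The lowest of the 15 were Mertk, a receptor for dying cells, at 38.3, 31.5 and 25.9 FPKM, and Fcgr1, the high-affinity IgG receptor, at 75.5, 67.4 and 53.9 FPKM. Both were highest in replicate 1 and lowest in replicate 3. In bulk RNA, fewer cells of a type cannot be told apart from less RNA per cell.

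Transcription factors of the lineage were nearly all present. Of 17 listed, 16 were at 1 FPKM or more in every sample, with a median of 31.1 FPKM, against 1102 FPKM for the macrophage identity list. Spi1, listed under its older symbol Sfpi1, was the highest at 205, 261 and 251 FPKM. Maf, which restrains self-renewal of macrophages, had 64.7, 63.6 and 62.8 FPKM. Irf8, a partner of PU.1 needed for the monocyte lineage, had 86.4, 76.6 and 75.7 FPKM, and Cebpa had 71.4, 73.2 and 66.2 FPKM. Cebpb, which drives myeloid differentiation and inflammatory genes, varied more than any of these and was 2.33 times higher in replicate 1 than in replicate 3, at 59, 27.8 and 25.4 FPKM. Among the lipid sensors, Pparg had 42.6, 43.5 and 41.5 FPKM and Nr1h3, which encodes the oxysterol receptor LXR alpha, had 25, 36.6 and 31.6 FPKM. Klf4 (1.29, 1.36 and 1.45 FPKM), Irf4 (1.15, 1.5 and 1.42 FPKM) and Id3 (1.11, 1.49 and 1.24 FPKM) were just above the threshold. Gfi1, a transcriptional repressor, was below the threshold at 0.102, 0.178 and 0.134 FPKM.

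Receptors for growth factors and cytokines were led by Csf1r, and 20 of the 22 listed were at 1 FPKM or more in every sample. Csf1r was 7.30 ± 0.587 times higher than Csf2ra, the alpha chain of the GM-CSF receptor, which had 125, 133 and 116 FPKM. The shared beta chain Csf2rb had 75.5, 73.7 and 74 FPKM, and the G-CSF receptor Csf3r had 27.4, 20.9 and 18.5 FPKM. Csf2rb is uncertain, since 18.4% of its words occur in other genes, Csf2rb2 being the closest. The 2 exceptions were the receptors of earlier precursors: Flt3 was at 0.144, 0.144 and 0.095 FPKM and Kit at 0.134, 0.289 and 0.275 FPKM. Interferon receptors were present before any stimulus, with Ifngr1 at 134, 107 and 116 FPKM and Ifnar2 at 121, 106 and 103 FPKM. For IL-4, the cytokine used elsewhere in the series, the receptor chain Il4ra had 24.8, 25.2 and 23.4 FPKM and the common gamma chain Il2rg had 102, 95.8 and 92.9 FPKM, whereas Il13ra1, the chain of the alternative receptor, had 4.11, 3.95 and 3.94 FPKM. Tnfrsf1b was above Tnfrsf1a, its fellow TNF receptor, in all 3 samples (166, 164 and 158 against 89.1, 117 and 115 FPKM).

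Of 5 myeloid growth factors, none reached 1 FPKM in any sample. Csf1, which encodes M-CSF itself, had 0.566, 0.564 and 0.311 FPKM. Il34 (the second Csf1r ligand), Csf2, Csf3 and Il3 were at 0 in every sample.

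Among pattern recognition receptors, which bind microbial products, 19 of 22 listed genes were at 1 FPKM or more in every sample, with a median of 25.8 FPKM. Clec4d, a C-type lectin for mycobacterial glycolipid, was much the highest at 798, 657 and 700.0 FPKM. Of the Toll-like receptors, Tlr13, which detects bacterial ribosomal RNA, came first at 146, 121 and 124 FPKM. The RNA sensors Tlr8 (102, 57.7 and 63.1 FPKM) and Tlr7 (69.5, 50.5 and 52.8 FPKM) were next by mean. All 3 were highest in replicate 1, where Tlr8 stood clear of the other samples. The LPS receptor Tlr4 was modest at 25.2, 21.6 and 22.1 FPKM, below its partners Cd14 (144, 153 and 163 FPKM) and Ly96 (46.2, 36.5 and 33.3 FPKM) in every sample. Cd180, a relative of Tlr4, had 159.8, 162 and 155 FPKM. The DNA sensor Tlr9 had 16.3, 16.5 and 13.4 FPKM and the double-stranded RNA sensor Tlr3 had 3.12, 2.22 and 2.17 FPKM. Tlr5, Tlr11 and Tlr12, which bind bacterial flagellin or protozoan profilin, were below 1 FPKM in all samples, at means of 0.234, 0.0698 and 0.0346 FPKM. Clec7a, the beta-glucan receptor dectin-1, had 167, 86.5 and 87.3 FPKM, about the same in replicates 2 and 3 and higher in replicate 1.

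Phagocytic and scavenger receptors were among the most abundant surface genes, with a median of 155 FPKM and 18 of 20 at 1 FPKM or more in every sample. Trem2, a receptor for lipids and apolipoproteins, had 908, 1137 and 1141 FPKM. Cd36, a scavenger receptor for oxidized lipoprotein, had 1126, 943 and 1002 FPKM. Sirpa, the receptor for the "don't eat me" signal CD47, had 714, 810.2 and 782 FPKM. The order of Trem2 and Cd36 differed between replicates, Cd36 being the higher in replicate 1 only. Of the IgG receptors, Fcgr3 led at 796, 716 and 725 FPKM, ahead of Fcgr2b, the inhibitory one, at 118, 109.8 and 103 FPKM, and Fcgr4 at 50, 52.6 and 36.6 FPKM. The order was the same in all 3 samples. The TAM receptors, which bind phosphatidylserine bridging proteins on dying cells, were uneven: Mertk was above Axl (10.9, 14.3 and 9.78 FPKM) in every sample, and Tyro3 was at 0.022, 0.0329 and 0.0133 FPKM. Timd4, another phosphatidylserine receptor, was at 0, 0.0316 and 0.0384 FPKM. The mannose receptor Mrc1 had 198, 167 and 179 FPKM without IL-4, and Cd163, the haemoglobin scavenger receptor, had 1.86, 1.69 and 1.36 FPKM. Marco, a scavenger receptor for bacteria, varied most of all, at 2.1, 26.5 and 12.4 FPKM.

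Antigen presentation genes were all expressed, 12 of 12, with a median of 402 FPKM. Cd74, the invariant chain, had 1854, 2658 and 2297 FPKM, and the class II chains H2-Aa, H2-Ab1 and H2-Eb1 summed to 0.337% ± 0.0596 of all FPKM. H2-Aa had 621, 889.6 and 766 FPKM, H2-Ab1 419, 613 and 523 FPKM and their regulator Ciita 5.52, 8.12 and 6.54 FPKM. All of these class II genes had the same order over samples, highest in replicate 2 and lowest in replicate 1, and Cd74 kept a ratio of 4.39 ± 0.0444 to H2-Ab1. The class I genes had another order: B2m (4086, 2995 and 2903 FPKM), H2-D1 (1979, 1681 and 1534 FPKM) and H2-K1 (707, 541 and 496 FPKM) were highest in replicate 1 and lowest in replicate 3. The costimulatory genes were low, with Cd86 at 9.86, 8.69 and 9.35 FPKM, Cd40 at 5.9, 8.41 and 6.71 FPKM and Cd80 at 3.22, 2.95 and 3.71 FPKM.

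Of the 20 lists of genes grouped by function, the lysosome list held the largest share of the FPKM total, 6.61%, ahead of iron handling at 6.10%, although the lists differ in size. All 20 lysosomal genes were expressed, 18 at a mean of at least 100 FPKM, with a median of 946 FPKM. The 7 cathepsins of the list alone held 3.03% ± 0.0515, an amount that differed little between samples. Ctsb had 3091, 3741 and 3643 FPKM and Ctss 3843, 2754 and 2752 FPKM, the second being the cathepsin that cuts the invariant chain. Ctss was the more abundant in replicate 1 and Ctsb in the other samples. Gpnmb, a glycoprotein of late endosomes and melanosomes, had 2456, 2943 and 3024 FPKM. Lamp1, the main protein of the lysosomal membrane, had 1061, 1031 and 991 FPKM and Lipa, the acid lipase, 995, 1058 and 1029 FPKM. The weakest member was Ctsc at 105, 83 and 77.1 FPKM.

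Lipid handling genes (10 of 10 expressed, median 248 FPKM) were headed by Apoe and Lpl, the latter at 1619.9, 2029 and 1855 FPKM. Plin2, the coat protein of lipid droplets, had 463, 594 and 579 FPKM. The fatty acid carrier Fabp5 had 428, 344 and 337 FPKM and its relative Fabp4 128, 125 and 124 FPKM. The cholesterol exporters Abca1 and Abcg1 had 90.5, 58.5 and 60.3 and 76.9, 71.2 and 64.9 FPKM. In iron handling (7 of 7 expressed) the ferritins were joined by Hmox1, which frees iron from haem, at 1145, 743 and 797 FPKM. The iron exporter ferroportin (Slc40a1) had 155, 127 and 131 FPKM, above the transferrin receptor Tfrc at 31.4, 35.6 and 42 FPKM. The Fth1 to Ftl1 ratio was 2.88 in replicate 1 and 1.94 and 1.81 in replicates 2 and 3.

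Cytoskeletal genes (12 of 12, 2.80% of the total) had a median of 427 FPKM. Behind Tmsb4x came Vim, the intermediate filament vimentin, at 1733, 1807 and 1895 FPKM, and Actb, beta-actin, at 1429, 1946 and 1907 FPKM. Actg1 (gamma-actin, 299, 475 and 494 FPKM) and Tuba1b (80.8, 138 and 132 FPKM) are uncertain, since 55.9% and 73.0% of their words occur in other genes. Glycolytic genes (14 of 14) ran from Hk2 at 5.29, 5.53 and 5.49 FPKM to Aldoa at 678, 835 and 830.1 FPKM. The main hexokinase was Hk3 at 139, 138 and 129.9 FPKM, above Hk1 at 24.1, 25.9 and 26.1 FPKM and Hk2. Gapdh, often used as a reference gene, stood at only 40.8, 42.2 and 41.1 FPKM, against 549.8, 698 and 703 FPKM for Pkm and 170.0, 234 and 241 FPKM for Ldha. Its sequence is shared with 213 other genes over 27.2% of its words, and Pkm, Pgk1 and Eno1 share 30.5%, 68.0% and 72.2%, so their order is uncertain. Ribosomal protein genes (85 rows, 81 at 1 FPKM or more in every sample) held 3.87% ± 0.0783.

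Complement genes ranged from abundant to absent. The 3 chains of C1q, which opens the classical pathway, held 0.898% ± 0.0329 of the total. C1qb had 2141, 2370.3 and 2188 FPKM, C1qc 1421, 1524 and 1407 FPKM and C1qa 576, 452 and 399 FPKM. Properdin (Cfp), which stabilizes the alternative pathway convertase, had 447, 488 and 494 FPKM. C3, the central component, had 18.1, 16 and 13.6 FPKM. C4b was at 0.0641, 0.072 and 0.0389 FPKM, and C5, listed as Hc, and C6 were at 0 in every sample. The receptors for the split products were well expressed, with C3ar1 at 287, 275 and 275 FPKM and C5ar1 at 126, 199.7 and 205 FPKM.

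Secreted mediators were mostly low. Of 18 chemokines, 10 were at 1 FPKM or more in every sample, against 42.0% of all rows. Ccl9 (256, 234 and 240.1 FPKM) and Ccl6 (274, 159 and 165 FPKM), which attract myeloid cells, were the highest, followed by Cxcl16 at 87.2, 78.4 and 75.5 FPKM and Ccl3 at 48.9, 51.9 and 49.2 FPKM. Ccl2, the attractant of monocytes, had 4.56, 5.57 and 4.06 FPKM. The chemokine Ccl5 had 66.6, 31.3 and 19.1 FPKM, a 3.48-fold range. Ccl17, Ccl24, Cxcl9 and Cxcl11 were below 1 FPKM in every sample. Of the chemokine receptors, Cxcr4 led at 63.7, 46.8 and 48.1 FPKM, Ccr2 had 10.4, 6.55 and 6.47 FPKM, and Ccr7, Cx3cr1 and Cxcr2 were below 1 FPKM.

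Of 12 inflammatory effectors, 4 were at 1 FPKM or more in every sample and 7 were below it in every sample. Over all rows, 42.0% were at 1 FPKM or more in every sample. Tnf was the highest at 11.8, 19 and 16.5 FPKM. Il10, the anti-inflammatory cytokine, had 5.2, 7.9 and 7.5 FPKM, Il1b 6.44, 5.04 and 4.44 FPKM and Acod1, the enzyme that makes itaconate, 3.94, 5.69 and 2.1 FPKM. Il6 was at 0, 0.352 and 0.057 FPKM, Nos2, the inducible nitric oxide synthase, at 0, 0.296 and 0.0933 FPKM and Il12b at 0, 0.0356 and 0.0866 FPKM. Il12a was at 0 in all samples and the interferon gene Ifnb1 at 0.147, 0.11 and 0 FPKM. These values lay near the level of a few fragments, so the replicates cannot be ranked by them.

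Markers used for alternative polarization were not uniformly absent at rest. Mrc1, Clec10a (16.6, 27.8 and 22.1 FPKM), Chil3 (19.2, 41.4 and 28.9 FPKM), Retnla (5.91, 19.5 and 8.74 FPKM) and Mgl2 (3.52, 4.95 and 4.76 FPKM) were at 1 FPKM or more in every sample. These were 5 of the 11 listed genes, a share near the 42.0% of all rows. Retnla, Chil3 and Clec10a were highest in replicate 2 and lowest in replicate 1. Chil3, listed as Chi3l3, shares 29.4% of its words with other genes. Mgl2 shares 16.5% of its words with other genes, Clec10a being the closest, and Clec10a shares 10.6% with Mgl2. Arg1, the arginase of IL-4-treated macrophages, was at 0.261, 0 and 0.0396 FPKM, Cdh1 at 0, 0 and 0.012 FPKM and Ear11 at 0, 0.639 and 0.207 FPKM.

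Markers of other cells were then examined, since bone marrow cultures can keep other lineages. Of 95 such genes found in the table, 65 were below 1 FPKM in every sample and 25 were at 1 FPKM or more in every sample. Over all 23847 rows, 10012 (42.0%) were at 1 FPKM or more in every sample. The median of the 95 genes was 0.130 FPKM. The defining genes of T cells (Cd3d, Cd3e, Cd3g, Cd8a), NK cells (Ncr1, Gzma, Prf1), B cells (Ms4a1, Pax5), red cells (Alas2) and fibroblasts (Col1a1, Col3a1, Dcn) each had a mean below 0.1 FPKM. Other members of these lists were higher: Cd79b, a chain of the B cell receptor complex, had 2.01, 2.31 and 3.22 FPKM, Epor, the erythropoietin receptor, 0.511, 1.11 and 1.02 FPKM and the globin gene Hba-a1 0, 0.347 and 0.423 FPKM. Cd28, known as a T cell costimulator, was an exception at 17.8, 20.5 and 21.9 FPKM, as was Itgax among dendritic cell genes at 43.1, 25.7 and 27.6 FPKM, beside Flt3, Zbtb46 and Xcr1 below 0.2. Pf4, a chemokine of platelets, had 303, 355 and 434 FPKM, whereas the megakaryocyte integrin Itga2b had 0.0257, 0.982 and 1.06 FPKM and Gp9 had 0.274, 0.205 and 0.829 FPKM. Of the osteoclast genes, Atp6v0d2 had 227, 119.6 and 141 FPKM and Dcstamp 25.6, 20 and 19.5 FPKM, with Ctsk at 10.2, 13.6 and 15.6 FPKM and the calcitonin receptor Calcr at 0 in every sample.

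Most of the neutrophil list was detected. Of 10 genes in the table, 9 were at 1 FPKM or more in every sample, against 42.0% of all rows. The sum of the 10 was 394, 989 and 704 FPKM in replicates 1 to 3. S100a8 and S100a9, the calprotectin subunits, had 122, 383 and 270.1 and 177, 421 and 299 FPKM and made up most of the sum in every sample. The granule gene Ngp had 50.4, 107 and 73 FPKM, Ltf (lactoferrin) 10.9, 23.1 and 15.2 FPKM and Camp (cathelicidin) 6.73, 21.4 and 18.2 FPKM. Primary granule genes were lower, with Mpo at 3.34, 7.52 and 5.52 FPKM and Elane at 4.41, 6.25 and 5.94 FPKM. Replicate 2 was highest for 9 of the 10 genes and replicate 1 lowest for 8, whereas over all 10370 rows with a mean of at least 1 FPKM replicate 2 was highest in 35.5% and replicate 1 lowest in 50.2%. The gene not highest in replicate 2 was Mmp8, at 16.3, 13.1 and 13.6 FPKM, highest in replicate 1. Ly6g, the defining surface marker, was not analysed here.

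**Figure D3:**
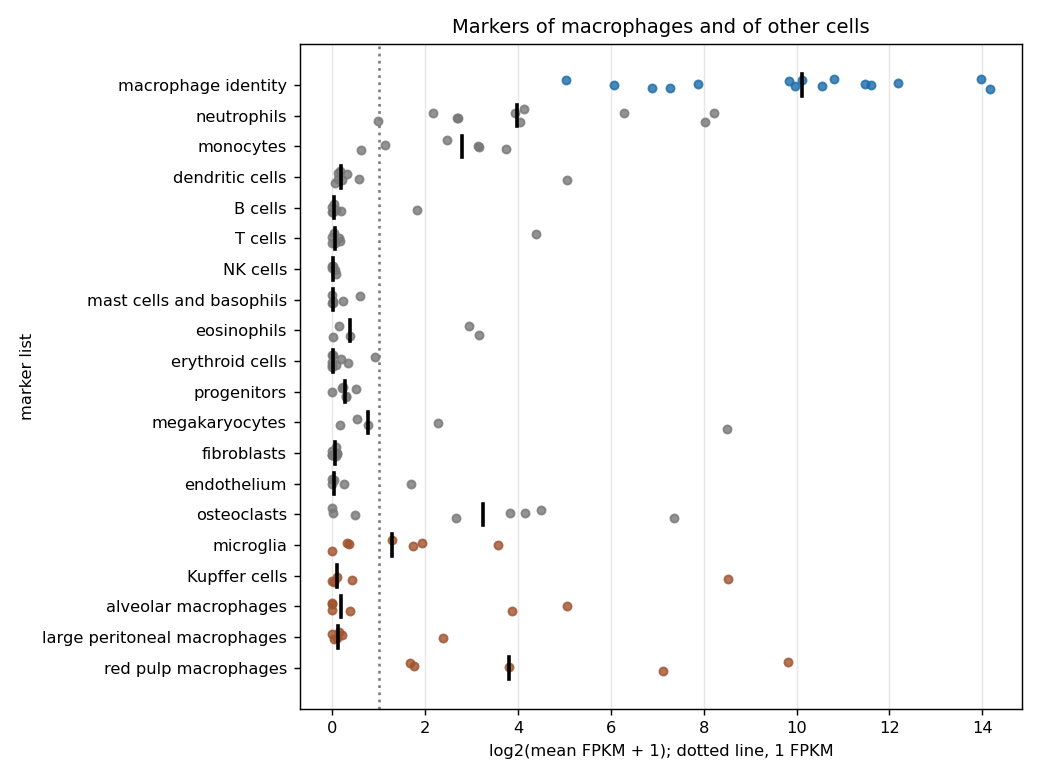
Mean FPKM of 3 control samples as log2(FPKM + 1) (horizontal axis) for each gene (dot) of the marker lists (vertical axis), with the list median as a black bar; blue is macrophage identity, grey other cells and brown resident macrophages, and the dotted line is 1 FPKM. The macrophage identity median is 1102 FPKM, while the medians of T, B and NK cell, fibroblast and endothelial lists are below 0.1 FPKM.

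Genes that mark macrophages resident in tissues were unevenly expressed. Of 29 examined, 16 were below 1 FPKM in every sample. The number at 1 FPKM or more in every sample was 12, a share close to the 42.0% of all rows. The median of the 29 genes was 0.298 FPKM. The tissue-defining regulators Gata6 of peritoneal macrophages and Sall1 of microglia were at 0 in every sample, as were Clec4f of Kupffer cells and Car4 of alveolar macrophages. Spic, the regulator of red pulp macrophages, was present at 19.6, 9.44 and 10.1 FPKM. Of the 5 red pulp genes, 4 were at 1 FPKM or more in every sample, among them Hmox1 and Slc40a1, given above under iron handling. Cd5l, a secreted protein of several tissue macrophages, had 258, 417 and 433 FPKM and was lower in replicate 1 than in replicates 2 and 3. Gpr34, a lysophospholipid receptor of microglia, had 16.1, 8.04 and 8.2 FPKM, and P2ry12 3.43, 2.65 and 2.28 FPKM.

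Large families of tissue-restricted genes were almost wholly silent. Of 1119 olfactory receptor rows, 1089 were at 0 in every sample and 1 reached 1 FPKM in all of them, Olfr111, at 3.48, 1.34 and 1.32 FPKM. Of 340 vomeronasal receptor rows, 333 were at 0 in every sample and none reached 1 FPKM in any. All 52 keratin-associated protein rows were at 0, as were 42 of 43 beta-defensin rows. None of the 40 Hox rows reached 1 FPKM in any sample, the highest mean being 0.789 FPKM for Hoxb4. Type I interferon genes were at 0 in 11 of 12 rows.

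Proliferation genes lay in the middle of the expressed rows. All 15 S phase and mitosis genes were at 1 FPKM or more in every sample, with a median of 10.8 FPKM against 10.5 for all expressed rows. Pcna, the clamp of DNA polymerase, was the highest at 231, 294 and 304 FPKM, and 31.8% of its words occur in a pseudogene. Mki67, the proliferation antigen, had 8.93, 6.98 and 7.87 FPKM, Top2a 11.7, 14.1 and 14.8 FPKM and Cdk1 8.95, 12.6 and 11.9 FPKM. The replication helicase genes were lower in replicate 1 than in both other samples, with Mcm2 at 4.43, 9.95 and 9.71 FPKM and Mcm5 at 6.51, 16.6 and 15.2 FPKM. Ccnd1, the cyclin that answers growth factors, had 17.4, 36.5 and 36.6 FPKM, and Cdkn1a, the inhibitor p21, 83, 119 and 115 FPKM. Ccnd2 was below 1 FPKM in every sample. Xist, the RNA of the inactive X chromosome, was at 0 in every sample, and 4 genes of the Y chromosome (Ddx3y, Eif2s3y, Kdm5d and Uty) were at 1 FPKM or more in all 3, with Eif2s3y at 34.4, 24.1 and 26.9 FPKM.

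Agreement between the replicates was close for genes of ordinary length and poor for short RNA genes. Across the 10628 expressed rows, Pearson's r of log2(FPKM + 1) was 0.947 for replicates 1 and 2, 0.950 for 1 and 3, and 0.971 for 2 and 3. Without short RNA rows it was 0.984, 0.987 and 0.995. Spearman's rho over all expressed rows was 0.958, 0.960 and 0.975. These are correlations across genes, which are not independent replicates. The median absolute log2 difference was 0.19, 0.17 and 0.08 for the same pairs, so replicates 2 and 3 lay closest. Among rows that were not short RNAs, the median coefficient of variation was 11.6% at a mean of 1 to 10 FPKM. It was 7.89%, 7.93% and 8.07% in the classes from 10, from 100 and from 1000 FPKM. For short RNA rows it was 173%, 135%, 93.8% and 78.3% in the same order of classes.

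Among the 5442 rows with a mean of at least 10 FPKM, 133 had a highest sample at least 2 times the lowest, and 88 of these were short RNA rows. In 58 of the short RNA rows a sample was at 0, so the ratio of highest to lowest is undefined and they cannot be ranked by it; the 3 named next are those with the highest mean among them. Snord19, a small nucleolar RNA, had 3348 FPKM in replicate 1 and 0 in the others. Mir3960 had 1607, 0 and 76.5 FPKM, and Mir142, a microRNA gene of blood cells, had 1131, 171 and 0 FPKM. Of the 5340 rows that were not short RNAs, 45 (0.843%) varied by 2-fold or more, and the highest of them were read off after their values were seen. Marco led with a 12.6-fold range, followed by Ccl5 (3.48), Retnla (3.31), the interferon regulator Irf7 (3.19), Camp (3.17) and S100a8 (3.14). Among the 298 such rows with a range of at least 1.5-fold, replicate 1 was the sample farthest from the others in 268, being high in 116 and low in 152; replicate 2 was so in 12 and replicate 3 in 18. Without replicate 1, rows with a 2-fold range numbered 63, short RNAs included.

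Whole gene lists moved with the replicate. Interferon-stimulated genes summed to 349.6, 294.6 and 226.1 FPKM, and 9 of 10 were highest in replicate 1 and all 10 lowest in replicate 3. Irf7 had 45.4, 22.5 and 14.2 FPKM, Isg15 18.1, 16.1 and 10.4 FPKM and Ifit3 16.6, 8.19 and 5.17 FPKM. Over all 10370 rows with a mean of at least 1 FPKM, replicate 1 was highest in 36.2% and replicate 3 lowest in 18.7%. The S phase and mitosis list summed to 345, 472 and 474 FPKM, and 14 of its 15 genes were lowest in replicate 1, as were 11 of 12 cytoskeletal and 12 of 14 glycolytic genes. Replicate 1 was lowest in 50.2% of all those rows. Macrophage identity and lysosome genes had no such common order, with replicate 1 lowest in 6 of 15 and 11 of 20. Neutrophil genes, as given above, were highest in replicate 2. Depth and the neutrophil sum also differed between the replicates, and their part in these differences was not tested; how the 3 controls fell into the 2 experiments is not given in the sources used here.

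**Figure D4:**
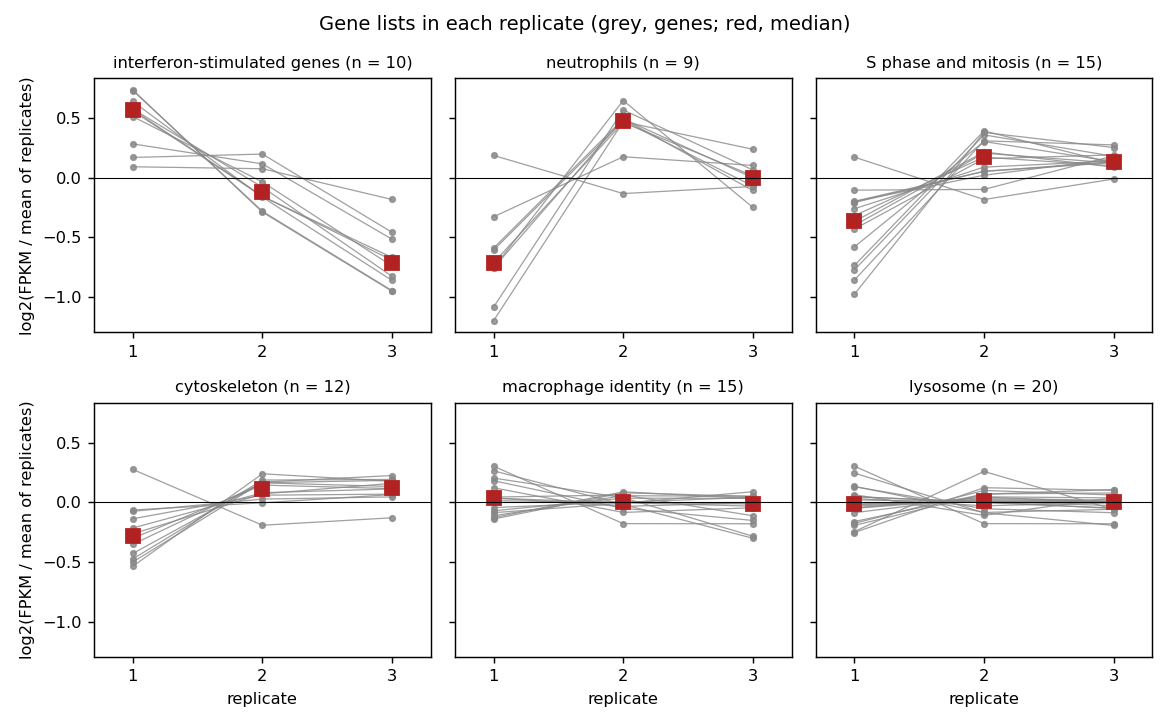
Difference of each gene from its own mean, as log2 of FPKM over the mean of 3 replicates (vertical axis), in control replicates 1 to 3 (horizontal axis) for 6 gene lists; grey lines join the values of a gene at 1 FPKM or more in every sample, and red squares are list medians. Interferon-stimulated genes are highest in replicate 1 for 9 of 10, neutrophil genes mostly highest in replicate 2, and macrophage identity and lysosome medians stay near 0.

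Promoters of the expressed genes were compared by level, as a description of what genes of a level share in sequence. RefSeq promoters (GRCm38.p6, 250 bases before to 50 after the start) were matched to 16215 protein-coding genes. The median ratio of observed to expected CpG was 0.216 in genes at 0 in every sample, 0.785 at 1 to 10 FPKM, 0.807 at 10 to 100 FPKM, 0.738 at 100 to 1000 FPKM and 0.421 in the 35 genes at 1000 FPKM and above. The motif TATAAA, counted on both strands, followed the reverse pattern: it was in 24.2% of the promoters at 0, in 6.77% and 6.07% of the middle classes, in 12.3% at 100 to 1000 FPKM and in 11 of 35 (31.4%) at 1000 FPKM and above, against 13% of all promoters. The class above 0 and below 1 FPKM lay between, with a CpG ratio of 0.497 and the motif in 11.2%. The motif GAGGAAGT, an ETS form bound by PU.1, was in 2.41% of promoters at 0, 3.70% at 10 to 100 FPKM, 5.07% at 100 to 1000 FPKM and 4 of 35 (11.4%) above, against 3.08% of all. The E-box TCACGTGA, the core of the motif bound by regulators of lysosomal genes, was in 0.241% at 0 and 2.65% at 10 to 100 FPKM. This motif itself holds a CpG, and the CpG ratio of these classes was 0.216 and 0.807. The part of CpG content in the E-box percents was not tested. All motifs were counted on both strands, matches to different motifs could overlap and were counted separately, and the top class is small.

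**Figure D5:**
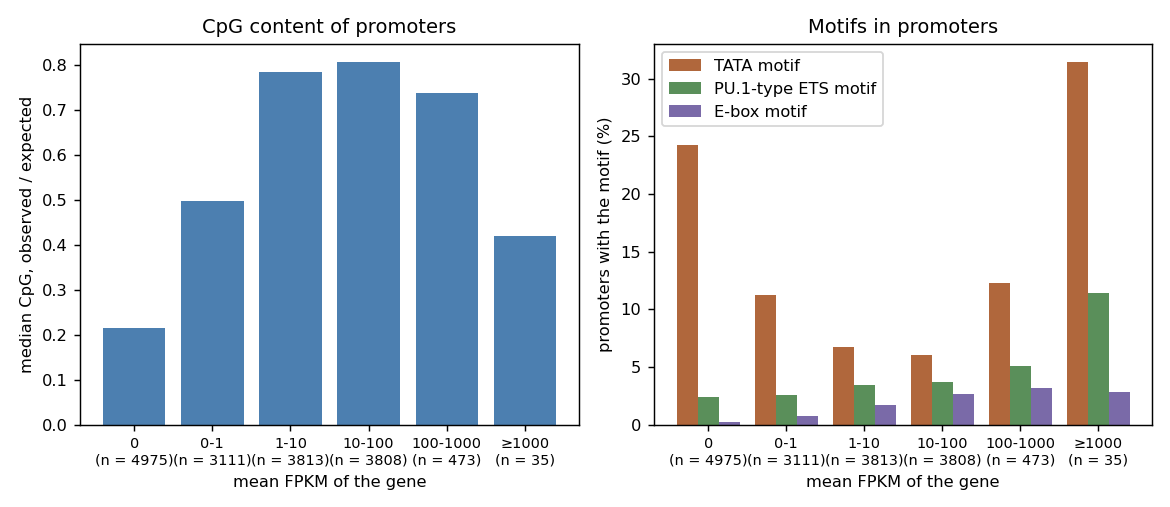
Left, median observed over expected CpG ratio of promoters (vertical axis) by mean FPKM class of the gene (horizontal axis, n promoters in each). Right, percent of promoters holding each of 3 motifs in the same classes; the TATA motif is in 24.2% of genes at 0, 6.07% at 10 to 100 FPKM and 31.4% at 1000 FPKM and above.

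In the lists, the interferon-stimulated response element (GAAA, any 2 bases, GAAA) was in 5 of 7 promoters of interferon-stimulated genes against 3.44% of all promoters. It was also in 2 of 11 promoters of the macrophage identity list, 2 of 17 of the lysosome list and 2 of 17 of the pattern recognition list. Among promoters of genes at 1000 FPKM and above it was in 4 of 35 (11.4%), the same count as the PU.1-type motif. An E2F motif (TTTCCCGC or TTTGGCGC, bound by regulators of S phase) was in 3 of 13 promoters of the S phase and mitosis list against 2.24%. The PU.1-type motif was in 1 of 11 promoters of the macrophage identity list, 2 of 17 of the lysosome list and 3 of 17 of the pattern recognition list, against 3.08% of all promoters, and the E-box was in 1 of 17 of the lysosome list against 1.34%. These counts are small and a match is not a bound site. Stretches that hold the motif are printed for genes described above, 5′ to 3′ on the strand of the gene. Only matches to the named motif are in capitals (either strand), and the Ctss stretch also holds a response element match. Each ends at the base before the RefSeq start, except Ctss, where the match crosses the start.
Ctss, PU.1-type motif, chr3:95526686-95526791, plus strand: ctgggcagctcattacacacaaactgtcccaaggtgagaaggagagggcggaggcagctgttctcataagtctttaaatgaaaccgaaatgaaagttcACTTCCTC
Ctsd, E-box, chr7:142387828-142387977, minus strand: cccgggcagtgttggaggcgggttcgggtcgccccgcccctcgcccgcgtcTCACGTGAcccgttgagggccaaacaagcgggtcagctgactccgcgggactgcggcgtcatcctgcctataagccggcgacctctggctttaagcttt
Isg15, response element, chr4:156200819-156200968, minus strand: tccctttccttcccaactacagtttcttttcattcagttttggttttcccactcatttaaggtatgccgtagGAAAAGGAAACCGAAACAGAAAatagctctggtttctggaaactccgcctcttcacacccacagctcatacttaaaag
Ifit3, response element, chr19:34583329-34583528, plus strand: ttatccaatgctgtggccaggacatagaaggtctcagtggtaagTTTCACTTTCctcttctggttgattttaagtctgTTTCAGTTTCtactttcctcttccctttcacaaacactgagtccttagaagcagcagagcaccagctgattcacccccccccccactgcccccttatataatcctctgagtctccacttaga
Mcm6, E2F motif, chr1:128359706-128359855, minus strand: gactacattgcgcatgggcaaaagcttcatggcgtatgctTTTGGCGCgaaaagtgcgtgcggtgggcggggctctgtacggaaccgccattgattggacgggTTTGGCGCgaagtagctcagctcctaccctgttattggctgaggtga
The Isg15 stretch holds 3 overlapping matches that begin 78, 72 and 66 bases before the start, and Ifit3 holds 2. Ifit3 is uncertain as a measured gene, since 51.2% of its words occur in Ifit3b. In Mcm6 the matches begin 110 and 47 bases before the start, and in Ctsd the match begins 99 bases before it.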

How the data were processed

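Poly-A selected RNA of BMDMs was sequenced per the labels. The deposited tables held FPKM values, 1 table per sample, made by the authors with TopHat2 2.0.7 and Cufflinks 2.0.2 on mm10 (the submitters' processing notes); the gene annotation was not given in the sources used here. FPKM is relative to the mapped fragments of the sample, so abundant rows lower all others, and short rows turn few fragments into high values. The kit did not mark strand, so overlapping genes cannot be told apart.

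The 3 control tables were joined on symbol, locus and start site, and 1 was added to starts, which count from 0. Means, SDs, ranks and shares were computed in Python 3.11.15 with pandas 2.3.3 and numpy 2.4.6, and figures with matplotlib 3.10.9. No test was run, since a single group was described. Rows were typed by RefSeq symbol (99.3% matched), and older symbols were resolved by its synonyms (375 of 377 listed genes found). Relative depth came from steps in low values (tolerance 0.2%), with a script tested on simulated data made of whole fragments only. In the samples, 57.7% of pairs of low values lay at small whole-number ratios for replicates 1 and 2. The percent was 45.1% for replicates 2 and 3 and 41.6% for replicates 1 and 3. To gauge shared sequence, the longest GENCODE vM21 transcript of a gene was cut into 50-base words and the percent also present in transcripts of other genes was counted.

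Named genes were the 25 highest rows, the 10 rows with the largest range at a mean of at least 10 FPKM, and fixed lists by function and cell type; members and lists were chosen with earlier results of these data known. Alternatives were other thresholds (0.5 and 5 FPKM), a pseudocount of 0.1, no filter, summed symbols, median-ratio and total scaling, and each replicate left out; leaving out short RNA rows was planned for the shares of the FPKM total, and for the other results, like median-ratio scaling of the list sums, it was added after the data were seen. Rows with a sample at 0 have no ratio of highest to lowest and were ordered by their mean. The 9 treated samples were not used. A few listed genes are not reported here.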

Additional observations from a re-analysis of the deposited data

How the results depend on the processing

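Of 84 settings compared, 76 left the value the same, 8 moved it and none reversed it. Shares and correlations were called the same within the SD between replicates or their pairs, and counts and ranks within 1.5 times. Relative depth was judged by a small fixed tolerance. The list sums were judged only by whether the ratio stayed on the same side of 1, so only they could have been reversed. With short RNA rows left out, the share of the 1000 highest rows was 69.8% in place of 70.4%, the mean pairwise r was 0.989 in place of 0.956, and the rows with a 2-fold range were 45 in place of 133. The mean r was 0.924 with a pseudocount of 0.1 and 0.986 with no filter on low values, where rows at 0 in every sample enter. The 2-fold rows were 434 at a mean of at least 1 FPKM. With each replicate left out in turn, r ran from 0.947 to 0.971 and the 2-fold rows from 63 to 103, the lowest count being without replicate 1. Median-ratio scaling factors were 0.976, 1.01 and 1.01, and under them the list sum of replicate 1 over the mean of replicates 2 and 3 was 1.39 in place of 1.34 for interferon-stimulated genes, 0.483 in place of 0.466 for neutrophil genes and 0.756 in place of 0.729 for S phase and mitosis genes. No paired analysis was possible because the results come from no test and a single group was used. Values below 0.316 FPKM in replicate 1 rest on about 3 fragments or fewer for a gene of 1 kb.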

Other observations

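Further gene groups were read in the 3 control samples, as values. Proteasome subunit rows were nearly all expressed (37 of 39 at 1 FPKM or more in every sample) and held 0.524% ± 0.0193 (SD, n = 3) of the FPKM total, and 19 of 26 rows of the V-ATPase, the pump that acidifies lysosomes, were expressed with a share of 0.720% ± 0.0540. Of 33 interleukin rows, 5 were at 1 FPKM or more in every sample, the highest being Il15 at a mean of 24 FPKM. Monocyte genes were low, with Ly6c2, the surface antigen of inflammatory monocytes, at 4.04, 12 and 7.71 FPKM and F13a1 at 14.7, 12.7 and 10 FPKM in replicates 1 to 3. Of the eosinophil genes, the granule protein gene Prg2 had 4.59, 10.8 and 8.3 FPKM and the chemokine receptor Ccr3 8.31, 5.15 and 6.64 FPKM, beside Epx, the eosinophil peroxidase, with a mean of 0.107 FPKM.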
